A study of Mus musculus with 16 samples.

Results

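The genes described here encode 9 proteins that hold the sarcomere together: Ttn, Neb, Actn2, Actn3, Mybpc1, Mybpc2, Myom1, Myom2 and Myoz1. They were taken by gene symbol from a list made with earlier results of these data known, and are 9 of the 39387 genes in the deposited tables of tibialis anterior muscle (21011 genes) and cortical bone (38933 genes). All 9 were present in each table. The mice were C57BL/6 females aged 18 months when dosing began. BAY-treated mice received BAY2416964, an inhibitor of the aryl hydrocarbon receptor (AhR), by oral gavage at 30 mg/kg on 5 days of each week for 8 weeks, and VEH-treated mice received its carrier of ethanol, Solutol and water by the same route. Mice of both groups were also given calcein as a bone label. Each of the 4 groups (muscle and bone, VEH and BAY) held 4 libraries of bulk RNA-seq, each library from 1 mouse, so P values cover the spread between mice. The bone RNA came from shafts left after marrow stromal cells had been taken out and the bone digested with collagenase, so cells lost in those steps were not sampled. The study asked whether blocking AhR lessens the decline of muscle and bone with age.

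The sarcomere is the contractile unit of striated muscle, bounded at each end by a Z-disc that anchors actin thin filaments and crossed at its centre by an M-band that links myosin thick filaments. Titin spans from the Z-disc to the M-band as a molecular spring and nebulin runs along the thin filament, while α-actinins cross-link actin at the Z-disc, myomesins cross-link myosin at the M-band and myosin-binding proteins C sit on the thick filament. These proteins are made in striated muscle fibres, and the tibialis anterior is a mostly fast-twitch muscle, in which α-actinin-3 (Actn3) is the fast-fibre form.

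Levels are CPM, the reads of a gene scaled to a fixed total of reads on genes, obtained by undoing the log2 and the small offset of the deposited values, and differences are BAY minus VEH on the deposited log2 scale. Reads on genes came to between 6131917 and 9262361 per muscle library and between 930307 and 6951913 per bone library, so that 3 reads, taken as the detection floor, were worth 0.324 to 0.489 CPM in muscle and 0.432 to 3.22 CPM in bone. This floor covers counting error only. The tissue labels were checked against marker genes. In muscle, 16 skeletal muscle fibre markers such as Ckm and Myh4 summed to between 128634 and 214506 CPM per library and were all detected. In cortical bone, 12 osteoblast and osteocyte markers such as Col1a1 and Bglap summed to 30403, 22563 and 22376 CPM in VEH replicates 3 and 4 and BAY replicate 3, to 7262 CPM in VEH replicate 1, and to no more than 2313 CPM in the other 4 libraries. Among the bone libraries, 3 (VEH replicate 1, BAY replicate 1 and BAY replicate 2) stood apart in carrying many muscle fibre transcripts, and the bone differences between BAY and VEH are given with and without them.

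In tibialis anterior muscle the 9 genes were abundant transcripts, and the BAY and VEH libraries overlapped in range for each of them. Their summed reads took between 16.3% and 25.2% of each library. The lowest share was in VEH replicate 1, which had the largest shares of mt-Rnr1 (10%), mt-Rnr2 (14.3%) and Rn18s (4.08%). All 9 means on the log2 scale were higher in BAY, by 0.05 to 0.26, although Mybpc1 became -0.00 with median centring and Myoz1 -0.03 with quantile normalization. That direction was shared by 55.2% of all genes, and none of the 9 passed an unadjusted P value of 0.05, where 9.79% of all genes did and 17.1% of the 595 genes that averaged 100 CPM or more. The median difference of the 9 was 0.08 on the log2 scale, beside 0.06 over all genes. In such bulk samples, fewer fibres and less RNA per fibre cannot be told apart.

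Ttn, which encodes titin, had the highest mean CPM of any gene in muscle, a scale on which long transcripts count for more. It reached 131947, 211632, 165217 and 164201 CPM in VEH replicates 1 to 4 and 201344, 152865, 178988 and 170475 CPM in BAY replicates 1 to 4, or 13.2% to 21.2% of a library. The lowest and the highest library were both VEH, and the BAY libraries lay between them. The log2 difference was 0.08 (95% interval -0.32 to 0.47, from the spread between libraries), with P = 0.965 by limma and P = 0.657 by an exact two-sided permutation test. The SE that limma's trend gave to Ttn was 1.76, against 0.16 from its own spread. The gene lies on the minus strand of chromosome 2 (mm39, 76534324 to 76812891), and its merged exons add up to 118 kb.

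The stretch of DNA just upstream of the annotated Ttn start is shown because Ttn had the highest level of the members, in CPM and per kilobase, beside that of Mybpc2, the other member with a long enough matched stretch outside annotated exons. Capitals mark the E-box letters CANNTG, which myogenic basic helix-loop-helix factors can bind, and any match to the MEF2 motif. Promoter sequences were from RefSeq and were placed on GRCm39 by exact match, which worked for 5 of the 9 members. Only bases outside annotated exons are shown, which leaves 250 bases for Ttn at chr2:76812892-76813141 and 190 for Mybpc2 at chr7:44174154-44174343, both on the minus strand and written 5′ to 3′ toward the gene.
Ttn: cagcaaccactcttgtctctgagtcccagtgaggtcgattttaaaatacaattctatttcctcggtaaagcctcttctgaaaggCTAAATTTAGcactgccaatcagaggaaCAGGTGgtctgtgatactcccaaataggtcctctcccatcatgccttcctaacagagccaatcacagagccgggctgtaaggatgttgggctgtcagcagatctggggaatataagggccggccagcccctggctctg
Mybpc2: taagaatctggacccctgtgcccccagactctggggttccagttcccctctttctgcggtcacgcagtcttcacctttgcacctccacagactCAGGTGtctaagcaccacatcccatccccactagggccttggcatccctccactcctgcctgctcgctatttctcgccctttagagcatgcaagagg

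The Ttn window held 1 MEF2 match, at position -166 from the start, and 1 E-box, at -138. The Mybpc2 stretch held 1 E-box, at -157, and no MEF2 match. Positions count from the RefSeq start. For Mybpc2, 60 bases of annotated exon lie between the end of the printed stretch and that start. Both motifs read the same on either strand and did not overlap each other. Among 32851 RefSeq promoters cut to the same 250 bases, 66.2% held an E-box, 2.92% a MEF2 match and 2.03% held both, and 57.3% held an E-box within the bases shown for Mybpc2. These are matches of letters and carry no measurement of binding.

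Neb encodes nebulin, the giant protein that runs along the thin filament. Its level was 19778, 26128, 22176 and 23926 CPM in the VEH replicates and 28128, 22634, 25259 and 26226 CPM in the BAY replicates. The VEH libraries reached lower, but 1 of them exceeded 2 of the BAY libraries. Nebulin's log2 difference was 0.16 (95% interval -0.11 to 0.42), with P = 0.802 by limma and P = 0.2 by exact permutation, again with a limma SE of 0.61 against 0.11 from the gene's own spread. Neb followed Ttn from library to library, with a ratio of Ttn to Neb between 6.5 and 8.1 in all 8 muscle libraries.

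The Z-disc α-actinins differed in level and in how they varied. Actn3, the fast-fibre α-actinin, had 3646, 4485, 4085 and 3582 CPM in VEH and 4362, 4195, 3530 and 5831 CPM in BAY. Its highest and its lowest library were both BAY. On the log2 scale the difference was 0.16 (95% interval -0.25 to 0.58), with P = 0.571 by limma and P = 0.486 by exact permutation. Of its exon bases, 26.8% overlap those of Ctsf, a cathepsin gene on the opposite strand, and Ctsf stood at 10 to 15 CPM in muscle.

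Actn2, the α-actinin made in all skeletal fibre types and in heart, was the scarcest member per length. Its values were 323, 316, 628 and 363 CPM in VEH and 353, 433, 585 and 394 CPM in BAY. A single library in each group, replicate 3 in both cases, stood above the rest. With all libraries the log2 difference was 0.15 (95% interval -0.54 to 0.84), with P = 0.512 by limma and P = 0.543 by exact permutation. Without VEH replicate 3 it was 0.38, with P = 0.0432 by limma and P = 0.114 by exact permutation over 35 assignments, and no other member passed that threshold in limma under any setting tried in muscle. VEH replicate 3 also had the most adipocyte marker reads (328 CPM for 7 genes, against 38.6 to 56.3 CPM in the other 7 libraries) and the most slow-fibre reads (407 CPM for 9 genes, against 62.8 to 291 CPM), and the part of these in the result was not tested.

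Myoz1 encodes calsarcin-2, a Z-disc protein of fast fibres that binds α-actinin and calcineurin. Its 4 VEH libraries spanned 363 to 394 CPM, the BAY libraries 354 to 468 CPM. This was the narrowest VEH spread of the 9 members, with a mean of 382 ± 13.8 CPM (SD, n = 4), against 402 ± 47.4 CPM in BAY. BAY and VEH differed by 0.07 on the log2 scale (95% interval -0.15 to 0.28), with P = 0.628 by limma and P = 0.571 by exact permutation.

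On the thick filament, Mybpc2, the fast-fibre myosin-binding protein C, had 2801, 3836, 3046 and 3239 CPM in VEH and 3753, 3315, 3104 and 5580 CPM in BAY. BAY replicate 4 was the highest by a wide margin and the other 3 BAY libraries fell within the VEH range. Its log2 difference of 0.26 (95% interval -0.26 to 0.78) was the largest of the 9 with all libraries, with P = 0.375 by limma and P = 0.286 by exact permutation. Without BAY replicate 4 it was 0.08, below the 0.20 of Actn2. Mybpc1, the slow-type myosin-binding protein C that fast fibres also carry, ran from 1440 to 2043 CPM in VEH and from 1487 to 1816 CPM in BAY, a log2 difference of 0.05 (95% interval -0.27 to 0.37) with P = 0.813 by limma and P = 0.771 by exact permutation. The BAY range lay wholly inside the VEH range. The ratio of Mybpc2 to Mybpc1 was 1.71 to 2.14 in 7 libraries and 3.75 in BAY replicate 4.

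At the M-band, Myom1 and Myom2, which encode the myosin cross-linkers myomesin-1 and myomesin-2, were nearly level with each other. Myom1 had 1251, 1385, 1496 and 1266 CPM in VEH and 1341, 1334, 1352 and 1650 CPM in BAY, and Myom2 ran from 1159 to 1452 CPM in VEH and from 1254 to 1477 CPM in BAY. Their ratio stayed between 0.954 and 1.16 in every muscle library. Each had a log2 difference of 0.07, with 95% intervals of -0.16 to 0.31 for Myom1 and -0.16 to 0.30 for Myom2, with P = 0.703 and P = 0.692 by limma and P = 0.514 for either by exact permutation. Over all 9 members, adjusted P values in muscle lay between 0.779 and 0.998 by limma.

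**Figure D1:**
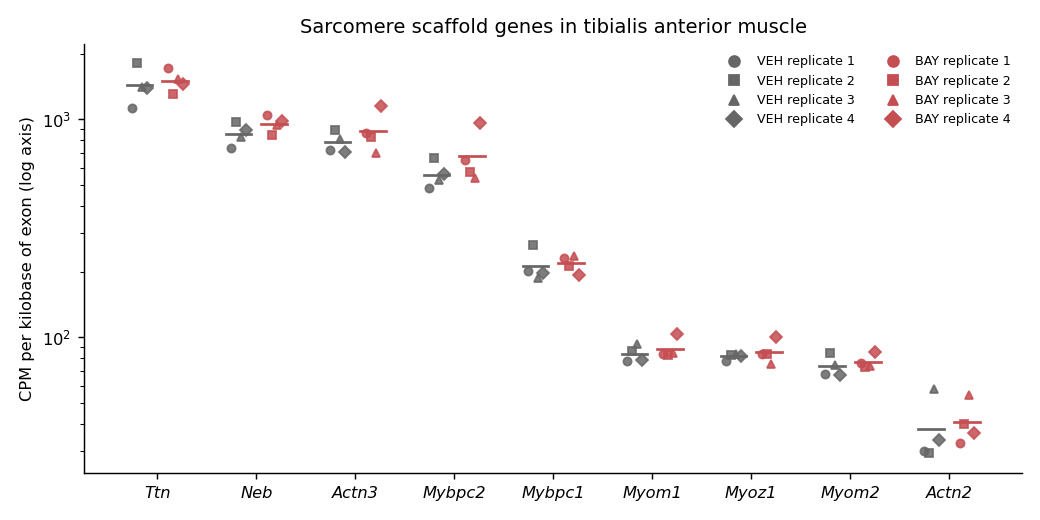
Level of each member in the 8 muscle libraries, as CPM per kilobase of merged exon on a log axis; grey points are VEH libraries, red points BAY libraries, marker shapes the replicates, and short lines the group means. Ttn, Neb, Actn3 and Mybpc2 lie highest, Actn2 lowest, and the 2 groups overlap for every member.

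Because long transcripts give more reads, levels of different genes were compared per kilobase of exon. Ttn led with a mean of 1464 CPM per kb (range over libraries 1123 to 1801), followed by Neb at 903 (736 to 1047), Actn3 at 834 (699 to 1154) and Mybpc2 at 618 (483 to 962). The range of Ttn lay above those of Neb and Mybpc2 but met that of Actn3, and the ranges of Neb, Actn3 and Mybpc2 overlapped. Mybpc1 came next at 215 CPM per kb (187 to 265) and was separated from its neighbours on either side. Myom1 at 86.3, Myoz1 at 83.7 and Myom2 at 75.4 CPM per kb had overlapping ranges, and Actn2 at 39.3 (29.3 to 58.1) lay below them all. The fast-fibre α-actinin thus exceeded Actn2 in every library, by 6.03 to 14.8 times in CPM.

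The members did not vary as a block between muscle libraries. Over the 36 pairs of members, the Pearson r of log2(CPM + 1) across the 8 libraries ran from -0.34 to 0.94 with a median of 0.41, and 8 pairs were above 0.8. The highest values were between fast-fibre genes, with r = 0.94 for Actn3 and Myoz1, 0.93 for Actn3 and Mybpc2 and 0.90 for Mybpc2 and Myoz1. They leaned on BAY replicate 4, the highest library for all 3 genes, without which r was 0.78, 0.77 and 0.58, and Spearman's rho over all 8 libraries was 0.76, 0.81 and 0.52. Titin and nebulin, the longest transcripts of the set, gave r = 0.89, and 0.93 without that library. Mybpc1 and Myoz1 gave the lowest value, -0.34. These correlations describe 8 libraries that share a preparation and the same total, in which Ttn alone took up to 21.2% of the reads.

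Outside the members, the genes whose level across muscle libraries was most like the members' mean were Fyco1 (r = 0.992), an adaptor of autophagosome transport, Fkbp8 (r = 0.978), a mitochondrial chaperone-like protein, Ppard (r = 0.978), a nuclear receptor of lipid metabolism, Dcaf8 (r = 0.977) and Ap3d1 (r = 0.973). They were picked from 5550 genes that averaged 10 CPM or more, and 20 genes exceeded an r of 0.95.

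A wider set of 54 other sarcomere genes was counted in 4 lists, and 52 of them were in the muscle table. At an unadjusted P value under 0.05, 3 were higher and 2 lower in BAY by limma, where 9.79% of all genes passed, and none of the 52 also reached a fold of 2, which 2.43% of all genes did. Their median log2 difference was 0.06, the same as over all genes. With the libraries centred on their medians the counts became 2 higher and 5 lower, and with quantile normalization 3 higher and 7 lower, where 11.6% and 12% of all genes passed.

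Among the 29 Z-disc genes, Tcap and Capza2 passed. Tcap, whose product telethonin caps the ends of titin at the Z-disc, stood at 592, 742, 654 and 654 CPM in VEH and 896, 890, 894 and 1268 CPM in BAY. Every BAY library was above every VEH library, a separation found in 5.73% of all genes in either direction. The log2 difference was 0.57 ± 0.17 (SE), with P = 0.00539 and an adjusted P of 0.324 by limma and P = 0.0286 by exact permutation, the smallest it can give. Capza2, a subunit of the capping protein that binds the barbed ends of thin filaments, was lower in BAY, at 40.2 to 47.8 CPM against 51.4 to 102 CPM in VEH, with a log2 difference of -0.58 ± 0.18 (SE), P = 0.00602 and an adjusted P of 0.333 by limma and P = 0.0286 by exact permutation. Both kept an unadjusted P value under 0.05 in all 17 alternatives, with P of at most 0.019 for Tcap and 0.0395 for Capza2.

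Of the 9 measured M-band and thick filament genes, Obsl1 and Trim54 were higher and Mybph lower. Obsl1, a cytoskeletal linker of the M-band, ran from 62.3 to 126 CPM in VEH and from 126 to 175 CPM in BAY, a log2 difference of 0.70 ± 0.19 (SE) with P = 0.00246 and an adjusted P of 0.295 by limma and P = 0.0571 by exact permutation. The highest VEH library met the lowest BAY library. Trim54, a titin-associated ubiquitin ligase of the MuRF family, had a log2 difference of 0.35 ± 0.13 (SE), with P = 0.0194 and an adjusted P of 0.418 by limma and P = 0.0571 by exact permutation. Mybph, a myosin-binding protein H, had a log2 difference of -0.50 ± 0.19 (SE), with P = 0.0169 and an adjusted P of 0.409 by limma and P = 0.0857 by exact permutation. Trim54 passed the unadjusted threshold in 14 of 17 alternatives and Mybph in 12 of 17, and their limma P values reached 0.0705 and 0.0739 there. Leaving out BAY replicate 4 ended the call for Trim54, and leaving out VEH replicate 1, VEH replicate 2, BAY replicate 1 or BAY replicate 3 ended it for Mybph.

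The remaining lists had no gene with P under 0.05 in muscle. In the thin filament list of 8 genes the smallest P values in each direction were for Klhl40 (log2 difference 0.19, P = 0.251 by limma and 0.314 by exact permutation) and Klhl41 (-0.32, P = 0.0795 and 0.114), kelch-type proteins that stabilise nebulin and leiomodin. In the list of 6 titin-linked ankyrin repeat and assembly factors the smallest in each direction were for Ankrd1 (0.32, P = 0.271 by limma and 0.4 by exact permutation), a stress-responsive repeat protein that binds titin, and Smyd1 (-0.17, P = 0.213 and 0.2), a myosin-assembly methyltransferase. Their adjusted P values by limma lay between 0.564 and 0.713.

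**Figure D2:**
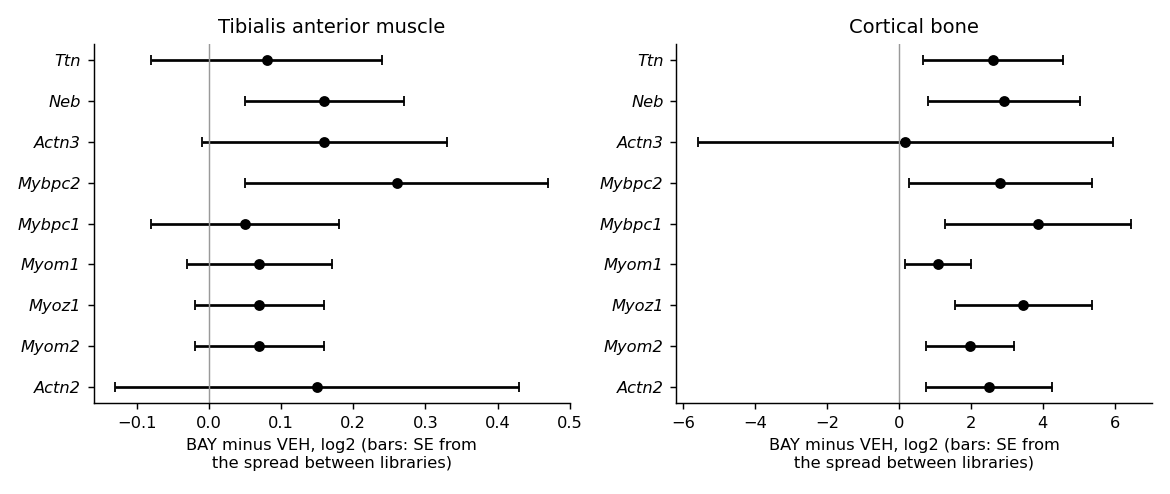
Difference between BAY and VEH in the mean log2 level of each member, with bars of 1 SE computed from the spread between libraries (n = 4 per group), in muscle (left) and cortical bone (right); the 2 horizontal axes differ in scale. In muscle the differences lie between 0.05 and 0.26, and in bone between 0.18 and 3.86 with SEs of 0.92 to 5.76.

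In cortical bone the 9 members varied widely between libraries of the same treatment. They summed to 19783, 1704, 416 and 616 CPM in VEH replicates 1 to 4 and to 51589, 56837, 2932 and 1158 CPM in BAY replicates 1 to 4, which is 0.0416% to 5.68% of a library. The 3 high libraries, 1 VEH and 2 BAY, thus held at least 19783 CPM and the other 5 at most 2932 CPM. All 9 mean log2 values were higher in BAY, as were those of 80.9% of all genes, although Actn3 became -0.67 with median centring. The groups overlapped for all 9, where 0.406% of all genes had no overlap. By limma 1 of the 9, Myoz1, was called higher at an unadjusted P under 0.05 and a fold of at least 2, a call made for 0.545% of all genes in that direction. The median log2 difference of the members was 2.61, beside 0.84 over all genes, and with the libraries centred on their medians these became 1.76 and -0.01.

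Titin and nebulin transcripts showed the pattern in full. Ttn had 16846, 1474, 283 and 478 CPM in VEH and 42421, 47184, 2423 and 953 CPM in BAY, and Neb had 1791, 101, 35.1 and 26.9 CPM in VEH and 5370, 5726, 269 and 68.8 CPM in BAY. BAY replicates 1 and 2 were highest and VEH replicate 1 next, followed for both genes by BAY replicate 3, VEH replicate 2, BAY replicate 4 and the last 2 VEH libraries. The log2 differences were 2.61 (95% interval -2.15 to 7.36) for Ttn, with P = 0.136 by limma and P = 0.2 by exact permutation, and 2.92 (95% interval -2.25 to 8.10) for Neb, with P = 0.0776 by limma and P = 0.2 by exact permutation.

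For the α-actinins, Actn2 had 128, 10.1, 3.19 and 3.64 CPM in VEH and 265, 273, 17.8 and 11.8 CPM in BAY. Actn3 had 179, 4.60, 2.83 and 0.728 CPM in VEH and 929, 933, 32.1 and 0 CPM in BAY, and its 0 reads in BAY replicate 4 allow up to 3.22 CPM. That library is the shallowest of the series. Ctsf, which shares exon bases with Actn3, had 7.19 to 67.2 CPM in the bone libraries and exceeded Actn3 in VEH replicates 2 to 4 and BAY replicate 4. The paper describes a strand-specific library kit, but not whether strand was used in counting, so reads of the shared bases cannot be told apart. On the deposited values the log2 difference of Actn2 was 2.5 with P = 0.0764 by limma and P = 0.171 by exact permutation, and that of Actn3 was 0.18 with P = 0.966 and P = 1. With 1 CPM added before the logarithm the difference of Actn3 became 3.02, because the offset in the deposited table puts an absent gene very low.

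Myoz1 was at 32.8, 2.76, 0.354 and 0.728 CPM in VEH and 99.7, 112, 4.07 and 7.52 CPM in BAY. Its BAY libraries 3 and 4 stood above VEH replicates 2 to 4 and below VEH replicate 1. Outside the 3 high libraries these values rest on few reads, from 1 to 8 per library. Its log2 difference was 3.46 ± 1.52 (SE), a fold of 11, with P = 0.041 and an adjusted P of 0.887 by limma and P = 0.114 by exact permutation. The limma call was lost with median centring, quantile normalization, no trend or voom, without VEH replicate 3, VEH replicate 4, BAY replicate 1 or BAY replicate 2, and without the 3 high libraries.

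Of the thick filament and M-band members, Mybpc1 had 290, 4.60, 2.48 and 0.728 CPM in VEH and 740, 804, 33.6 and 5.37 CPM in BAY, with a log2 difference of 3.86, P = 0.0554 by limma and P = 0.171 by exact permutation. Mybpc2 had 223, 6.44, 7.09 and 2.18 CPM in VEH and 824, 863, 36.2 and 2.15 CPM in BAY, with a log2 difference of 2.82, P = 0.141 by limma and P = 0.257 by exact permutation. Myom2 had 131, 47, 9.92 and 34.2 CPM in VEH and 477, 462, 40.7 and 57 CPM in BAY, with a log2 difference of 1.98, P = 0.0578 by limma and P = 0.171 by exact permutation. In all 3 the same 3 libraries were high.

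Myom1 stood out from the other members in the low bone libraries. It had 161, 53.4, 72.6 and 68.4 CPM in VEH and 463, 481, 75.4 and 51.6 CPM in BAY, so that its 5 low libraries lay within 51.6 to 75.4 CPM. Myom1 in VEH replicates 2 and 4 and BAY replicate 4 was below the olfactory receptor mean per kilobase given below. Its highest value was 9.31 times its lowest, against 48 times for Myom2 and 1105 times for Mybpc1. Its log2 difference was 1.08, with P = 0.186 by limma and P = 0.286 by exact permutation, and without the 3 high libraries it was -0.04. Its exons share 395 bases in all with exons of genes on the opposite strand whose spans overlap it, Gm53974 and Myl12a. How many of these bases belong to Myl12a, a myosin regulatory light chain gene, was not counted. Myl12a had 21.5 to 56.8 CPM in the bone libraries and 36.6 to 72.7 CPM in muscle. The paper describes a strand-specific library kit. Whether strand was used in counting was not given in the sources used here, so reads of the shared bases cannot be told apart.

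**Figure D3:**
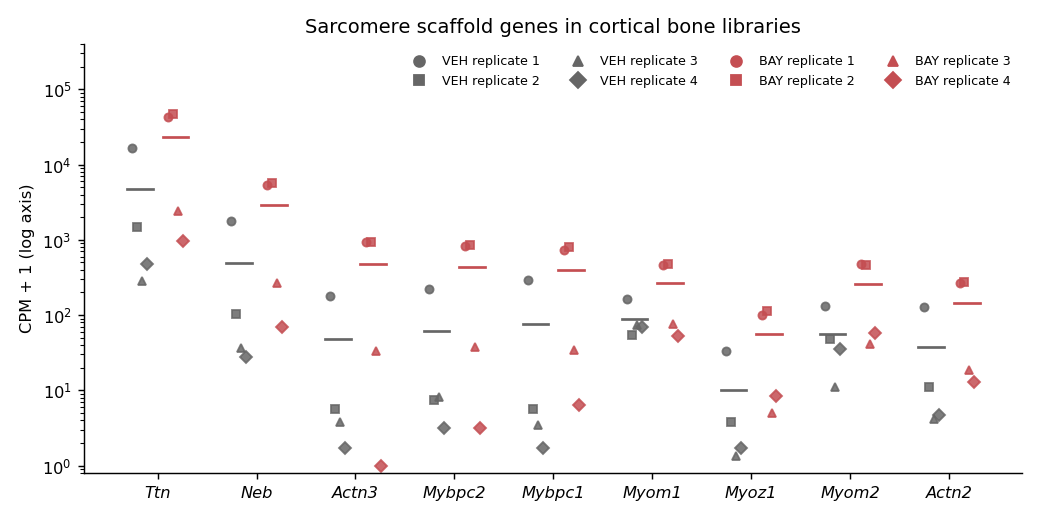
Level of each member in the 8 cortical bone libraries, as CPM + 1 on a log axis, with grey points for VEH, red points for BAY, marker shapes for replicates and short lines for group means. BAY replicates 1 and 2 and VEH replicate 1 lie above the other libraries for every member, and each group mean rests on its high libraries.

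The number of members that passed P under 0.05 in bone changed with the scale and the libraries used. It was 1 on the deposited values, 6 with 0.1 CPM added and 8 with 1 CPM added, where 0.64%, 0.519% and 0.503% of all genes passed. On the last scale Mybpc1 had the smallest P value, 8.2e-05 by limma with an adjusted P of 0.53, and its limma SE of 0.85 was well below the 2.39 that its own libraries gave. Exact permutation on that scale gave P = 0.171 for Mybpc1 and no less for any member. The count was 0 without BAY replicate 1 or without BAY replicate 2, and 0 without all 3 high libraries, a setting chosen after seeing the data, where 0.606% of all genes passed. In that setting the log2 differences were 1.38 for Ttn, 1.57 for Neb and for Actn2, 2.73 for Mybpc1, 0.93 for Mybpc2, 0.94 for Myom2 and 2.63 for Myoz1, all smaller than with all libraries, and -5.22 for Actn3 and -0.04 for Myom1. The median of the members was 1.38. With voom, the kind of test the authors used, the members that passed were Ttn (2.45) and Myom2 (1.92) and not Myoz1 (2.91), where 3.68% of all genes passed.

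Bone libraries that were rich in members were also rich in other muscle fibre transcripts. The 16 muscle fibre markers summed to 11740, 386, 133 and 100 CPM in VEH and 43315, 47143, 1701 and 182 CPM in BAY, and no more than 2 of them were at 0 in any library. The order of these sums was close to that of the members, with the same 3 libraries on top. The mitochondrial rRNA mt-Rnr1 also took more of those libraries. It was 17% in VEH replicate 1, 8.91% in BAY replicate 1 and 10.7% in BAY replicate 2, against 0.635% to 5.76% in the others. Across the 8 bone libraries, the log2(CPM + 1) level of Neb had a Pearson r of 1.00 and a Spearman rho of 1.00 with the mean of the markers, and the other members had r from 0.91 (Myom2) to 0.99. Leaving out BAY replicates 1 and 2, the libraries farthest from the median of the markers, gave r = 0.99 for Neb, 0.95 for Actn2 and 0.71 for Myom2 over 6 libraries. Among these 6, Neb was at 0.174 to 0.931 times the olfactory receptor mean per kilobase in VEH replicates 2 to 4 and BAY replicate 4. That mean serves below as a yardstick for background. None of the 16 markers is among the 9 members, but both were read from the same libraries and totals, and the points include 3 libraries set apart from the rest.

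**Figure D4:**
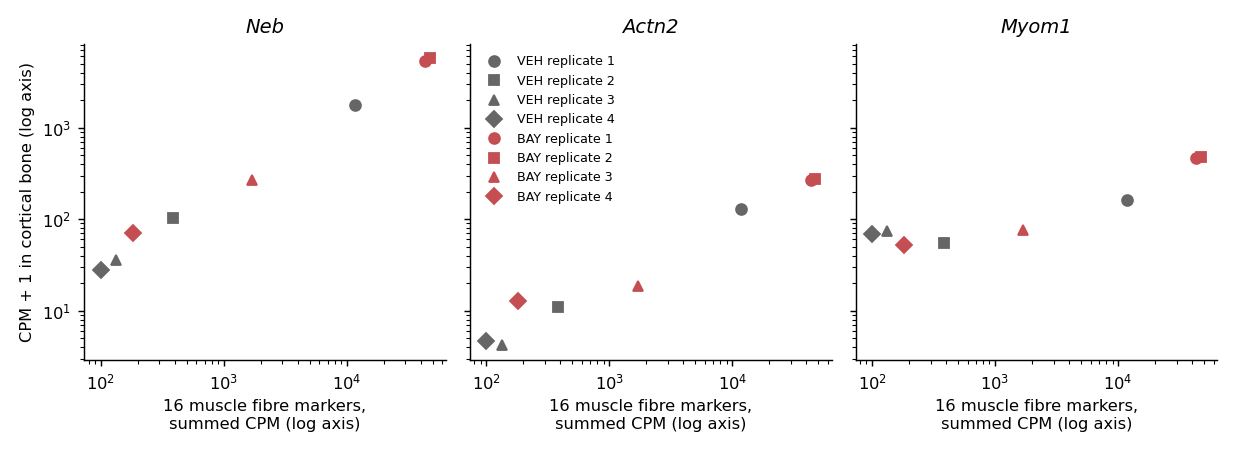
Level of Neb, Actn2 and Myom1 (CPM + 1, log axis) in the 8 cortical bone libraries against the summed CPM of 16 skeletal muscle fibre markers (log axis); grey is VEH, red is BAY, and shapes give the replicate. Neb rises with the markers over the whole range. Myom1 is flat among the 5 libraries with few marker reads and higher in the other 3. Neb in VEH replicates 2 to 4 and BAY replicate 4 was below the olfactory receptor mean per kilobase given below. So was Myom1 in VEH replicates 2 and 4 and BAY replicate 4. Those points were not told apart from background.

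With osteoblast and osteocyte markers the members ran the other way, with r between -0.80 (Myom2) and -0.50 (Actn3) on the log2(CPM + 1) scale over 8 libraries. All 36 pairs of members had r of at least 0.85 in bone. Of all 16975 genes averaging 10 CPM or more in bone, those most like the members' mean were Eef1a2 (r = 0.995), an elongation factor of muscle and neurons, Nrap (r = 0.995), a nebulin-related protein of the myofibril, Cacna1s (r = 0.995), the voltage sensor of excitation-contraction coupling, Pgam2 (r = 0.989), the muscle phosphoglycerate mutase, and Myh1 (r = 0.989), a fast myosin heavy chain. By mean log2 level, 0 of 12 osteoblast and osteocyte, 0 of 6 erythroid and 0 of 6 neutrophil markers were higher in BAY. Of the adipocyte markers 4 of 7 were higher, of the endothelial 3 of 4 and of the cardiac 3 of 3. None of these markers passed P under 0.05 by limma, where 0.64% of all genes did. The part of other cell types in the difference between BAY and VEH was not tested.

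Olfactory receptor genes, most of which are made in olfactory neurons, served as a yardstick for background reads. Their mean in bone, over 1355 genes, was 0.132, 7.52, 1.40 and 5.77 CPM per kb in VEH and 3.09, 2.64, 2.67 and 9.06 CPM per kb in BAY. The deepest library, VEH replicate 1, had the lowest level and the shallowest, BAY replicate 4, the highest. All 9 members exceeded it in the 3 high libraries, by 53 to 1085 times in VEH replicate 1 and by 6.88 to 152 times in the 2 BAY libraries. In BAY replicate 3, 6 of 9 exceeded it, in VEH replicate 3 only Ttn (1.72 times) and Myom1 (3.23 times), in VEH replicate 2 only Ttn (1.67 times), and in VEH replicate 4 and BAY replicate 4 none did. Levels at or below this mean were not told apart from background.

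The mix of members in the bone libraries was set beside that in muscle. The tables were normalized separately, so each level below is a share of the muscle mean rather than a tested difference. Background was not taken off these shares or the ratios that follow. In bone BAY replicate 1, Myoz1 and Actn2 were 6.88 and 7.94 times the olfactory receptor mean and Ttn 117 times, so background weighs unevenly on the members. In BAY replicate 1 of bone, Neb stood at 22.1% of its muscle mean, Actn3 at 22.1%, Mybpc2 at 23%, Ttn at 24.7% and Myoz1 at 25.4%. Myom1 at 33.4%, Myom2 at 36.8%, Mybpc1 at 44.6% and Actn2 at 62.5% were higher, and BAY replicate 2 gave nearly the same series. In VEH replicate 1 the shares ran from 4.26% for Actn3 to 30.2% for Actn2. Actn3, Neb and Mybpc2 had the lowest shares in all 3 libraries and Actn2 the highest.

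**Figure D5:**
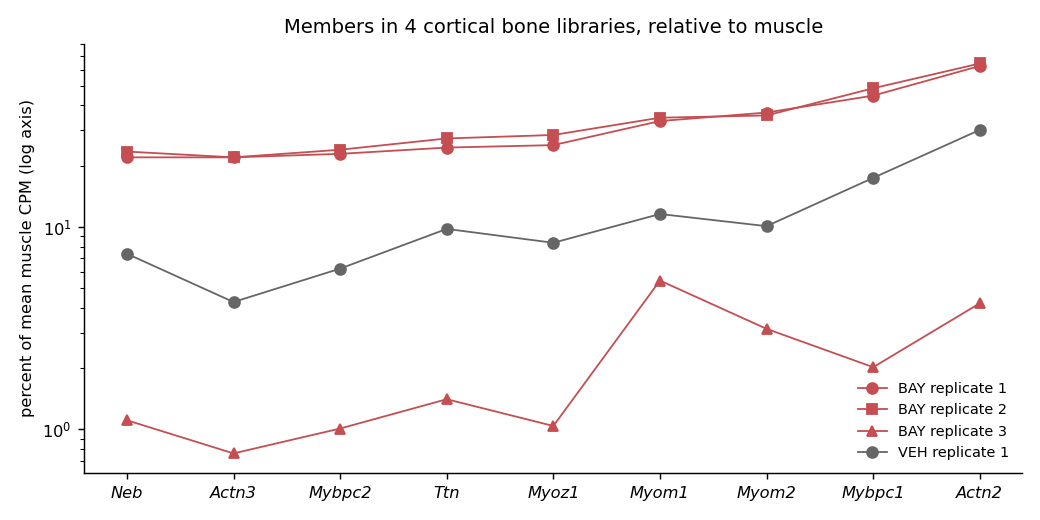
Level of each member in 4 cortical bone libraries as a percent of its mean CPM in muscle (log axis), ordered by BAY replicate 1; red lines are BAY replicates 1 to 3 and the grey line is VEH replicate 1. In BAY replicates 1 and 2 the shares rise from 22.1% for Actn3 to 62.5% and 64.3% for Actn2. Without correction for background, the proportions of the members thus differed from those in tibialis anterior muscle.

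Ratios within a library do not depend on the scaling of either table and gave the same picture. Actn3 exceeded Actn2 by 6.03 to 14.8 times in muscle, but in bone the ratio was 3.51 and 3.42 in BAY replicates 1 and 2 and 1.4 in VEH replicate 1. Ttn was 263 to 669 times Actn2 in muscle and 131, 160 and 173 times in VEH replicate 1 and BAY replicates 1 and 2 of bone. In those 3 libraries both ratios lay below the muscle range. In the other 5 bone libraries Actn2 was below the olfactory receptor mean, so their ratios are not given. The ratio of Ttn to Neb, in contrast, was 7.9, 8.24 and 9.4 in the 3 high bone libraries, beside 6.5 to 8.1 in muscle. VEH replicate 1 of bone also had 384 CPM of Myh7, the slow myosin heavy chain, against 15.2 to 47 CPM in the other bone libraries. Which muscle any such transcripts came from was not tested.

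Of the 54 other sarcomere genes, 53 were in the bone table and 49 had a mean log2 level higher in BAY, with a median difference of 1.23 beside 0.84 over all genes. Without the 3 high libraries 45 were higher and the median was 0.37 beside 0.27. By limma, 2 passed an unadjusted P of 0.05 and a fold of 2, both higher in BAY, where 0.64% of all genes did in either direction. They were Myot, whose product myotilin binds α-actinin at the Z-disc, and Tmod4, the tropomodulin that caps thin filaments at their pointed ends in skeletal muscle. Myot had 70.2, 2.76, 0.709 and 2.91 CPM in VEH and 209, 246, 10.2 and 9.67 CPM in BAY, a log2 difference of 3.41 (P = 0.0348 and adjusted P = 0.887 by limma, P = 0.143 by exact permutation). Tmod4 had 9.21, 0, 0 and 0 CPM in VEH and 46.5, 46.3, 4.07 and 2.15 CPM in BAY (P = 0.0162 and adjusted P = 0.887 by limma, P = 0.0857 by exact permutation). The same 3 libraries were highest for both. Without them the log2 difference of Myot was 2.47 and it did not pass, while Tmod4 passed on 3 VEH libraries at 0 reads and BAY libraries at 4.07 and 2.15 CPM, the latter under its floor of 3.22 CPM. No log2 difference is given for Tmod4, since its size depends on the offset added to values of 0. Myot passed the unadjusted threshold in 8 of 18 alternatives and Tmod4 in 16 of 18, and both lost it without BAY replicate 1 or BAY replicate 2. Among the titin-linked factors the smallest limma P value was for Ankrd23 (0.0559), a titin-linked repeat protein with a higher mean in BAY. Of the genes with a lower mean in BAY, the smallest were for Actn1 (0.304) in the Z-disc list and Actc1 (0.579) in the thin filament list. Without BAY replicate 1, and likewise without BAY replicate 2, no gene of the 53 passed, where 0.403% and 0.398% of all genes did, and without the 3 high libraries 1 did, where 0.606% did.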

How the data were processed

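Bulk RNA-seq of 8 muscle and 8 cortical bone libraries was analysed. The authors aligned reads with STAR (version 2.7.8a) to mm39, quantified Ensembl genes in Partek, scaled them to CPM and deposited log2 values with an offset (0.0004 in muscle, 0.0001 in bone). Groups and replicates came from the labels. The muscle VEH replicate 3 column is named as a replacement.

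For each tissue, BAY was compared with VEH on the deposited log2 values of all genes, using limma 3.58.1 under R 4.3.3 (lmFit, then eBayes with a trend), two-sided, without covariates, and P values were adjusted by Benjamini-Hochberg over all genes. The authors' test was limma-voom, with thresholds of P under 0.05 and a fold of 2. At these thresholds voom on recovered reads called 1433 genes in bone, the number the paper reports, and 700 in muscle. The fit on the deposited values called 249 and 510. Single members were also compared by exact permutation over the 70 assignments of 8 libraries, whose smallest possible P value is 0.0286. The 95% intervals use the SD between libraries. The script was tested on simulated data. CPM and reads were recovered from the log2 values. Between 81.2% and 88.5% of values up to 50 reads came out whole to within 0.02. No row of either table had under 5.00 reads in all. Exon lengths came from GENCODE release M39 on GRCm39, the same build as the files.

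Members and gene lists were chosen with earlier results of these data known. Named genes were the members, every other sarcomere gene called or with the smallest P per list and direction, and the 5 genes most like the members' mean; 1 gene that this rule names is not reported here. Alternatives were other pseudocounts, removal of genes averaging under 1 CPM, median centring, quantile normalization, no trend, voom on recovered reads, array weights, a replicate block and leaving out libraries.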

Additional observations from a re-analysis of the deposited data

Results flagged for a closer look

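Myom1 in muscle was flagged because BAY replicate 4, at 1650 CPM, stood far above the other 3 BAY libraries, which lay between 1334 and 1352 CPM. On the deposited log2 scale, the only scale tested, its gap to the next library was 0.94 of the group's range, past Dixon's critical value. The 4 VEH libraries spanned 1251 to 1496 CPM. The same library was also the highest of the BAY group for Actn3, Mybpc2, Myom2 and Myoz1, and its 16 fibre markers summed to 214506 CPM against 128634 to 161728 CPM in the other 7 muscle libraries. The test was run on 36 groups of 4 values, of which chance flags about 1 in 20.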

How the results depend on the processing

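In muscle, 0 of 9 members passed P under 0.05 with every setting that kept all libraries (log2(CPM + 1), log2(CPM + 0.1), the filter, median centring, quantile normalization, no trend, voom, array weights and the replicate block), and 0 to 1 when a library was left out, the 1 being Actn2 without VEH replicate 3. The differences that changed sign were all near 0: Mybpc1 became -0.00 with median centring and Myoz1 -0.03 with quantile normalization. With a library left out, Ttn ran from -0.03 (without VEH replicate 1) to 0.19, Mybpc1 from -0.01 (without VEH replicate 3) to 0.16, Myom1 from -0.00 and Myoz1 from -0.01 (both without BAY replicate 4) to 0.12.

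In bone, 1 of 9 members passed on the deposited values, and the count was 8 with log2(CPM + 1), 6 with log2(CPM + 0.1), 2 with voom on recovered reads, 8 with array weights and 0 with median centring, with quantile normalization and with no trend. The share of all genes that passed was 0.64% on the deposited values, 0.503% with log2(CPM + 1), 0.519% with log2(CPM + 0.1), 3.68% with voom, 2.31% with array weights, 0.783% with the replicate block, 1.19% with median centring, 1.88% with quantile normalization, 1.05% with no trend, and 0.295% to 2.87% with a library left out. The cause was not tested. Leaving out a library gave 0 to 8: 6 without VEH replicate 1, 4 without BAY replicate 3, 8 without BAY replicate 4 and 0 without VEH replicate 3, VEH replicate 4, BAY replicate 1 or BAY replicate 2. A fit with the replicate number as a block gave 7 in bone and 0 in muscle. No source says that a shared number marks a shared batch or animal. Deviations of same-numbered libraries from their group means correlated at 0.195, -0.113, 0.668 and 0.478 in bone (numbers 1 to 4) and at -0.264 to 0.0972 in muscle, so not every pair was positive, and 4 of 8 bone and 2 of 8 muscle libraries were closest to their own number. The pairing was therefore left out of the reported values. Without the 3 libraries rich in muscle transcripts the count was 0, and Actn3 changed sign to -5.22 and Myom1 to -0.04, which otherwise reached up to 1.66 with a library left out. Actn3 was also -0.67 with median centring and ran from -2.16 to 5.56 with a library left out. With BAY replicate 4 included, the values of Actn3 depend on what is added to its 0 reads there. The median difference of the members kept its sign in every setting. It was 1.76 with median centring, 3.82 without VEH replicate 1 and 5.06 with array weights. Over all genes the medians there were -0.01, -0.09 and -0.33. Of 162 values of single members under these settings 8 changed sign, 7 of them of Actn3. Of the 53 other sarcomere genes in bone, 2 passed on the deposited values, 13 with log2(CPM + 1), 7 with log2(CPM + 0.1), 21 with array weights, 17 with the replicate block, 1 with median centring, with quantile normalization, with no trend and without the 3 high libraries, and 0 to 16 with a library left out, beside the shares of all genes given above. Of the 52 in muscle, 3 were higher and 2 lower, which became 2 and 5 with median centring, 3 and 7 with quantile normalization and 4 and 5 without VEH replicate 4, where 9.79%, 11.6%, 12% and 9.65% of all genes passed. Outside the 3 high bone libraries Myoz1 rests on 1 to 8 reads per library, which limits its precision.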

Other observations

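Fibre-type genes were measured beside the members in muscle. Of 10 fast-fibre genes none passed P under 0.05 by limma, with a median log2 difference of 0.08 beside 0.06 over all genes, and 9.79% of all genes in muscle passed. Of 9 slow-fibre genes only Myl3, a ventricular and slow-skeletal myosin light chain, passed, at 9.2 to 12.6 CPM in VEH and 14.2 to 15.5 CPM in BAY (log2 difference 0.45 ± 0.15 SE, P = 0.00809 and adjusted P = 0.349 by limma, P = 0.0286 by exact permutation). Myh7, the slow myosin heavy chain, varied between muscle libraries of the same group, with 7.05, 178, 227 and 28.2 CPM in VEH and 103, 38.7, 88.3 and 121 CPM in BAY.

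Single markers of other cell types passed the same threshold in muscle, which 9.79% of all genes passed, and groups without overlap were found in 5.73% of all genes. Of 7 adipocyte markers, Plin1 was lower in BAY (P = 0.0368 and adjusted P = 0.48 by limma, P = 0.0857 by exact permutation), with 37.9 CPM in VEH replicate 3 and no more than 2.33 CPM in any other library. Of 4 endothelial markers, Cdh5, the vascular cadherin, had a log2 difference of 0.31 (P = 0.0234 and adjusted P = 0.438 by limma, P = 0.0286 by exact permutation), while Kdr, Pecam1 and Tek had differences of -0.24, -0.02 and 0.04 and did not pass. Of 3 cardiac markers in the table, Myh6 and Tnnt2 had differences of 0.12 and -0.28 and did not pass. Tnni3, cardiac troponin I, passed (P = 0.0133 and adjusted P = 0.39 by limma, P = 0.0286 by exact permutation), but stood at 0.138, 0.652, 0.387 and 0.14 CPM in BAY and 0.108 CPM or 0 in VEH, and among these 8 values only that of BAY replicate 2 was above the value of 3 reads in its library.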
